A study of Mus musculus with 45 samples.

Results

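The transcripts described here span at least 60 kb and under 100 kb from annotated start to end, and every transcript in that length range was taken, whatever its values. There were 6032 of them among the 122968 transcripts of the series (4.91%), from 2962 genes. Mouse embryonic stem cells (ESCs) were wild type for Polr2a, which encodes the largest subunit of RNA polymerase II (RNAPII) (WT/WT), carried the slow R749H form on one allele (WT/slow), or carried it on both (slow/slow). Before sampling, a DRB treatment of 4 h per the labels (3 h is also given in the sources) held transcription back. Cells were sampled 5, 15 or 30 min after DRB was removed, and 4-thiouridine (4sU) was present during the final 10 min to mark new RNA. Each of the 9 combinations of genotype and time had 3 libraries, described as biological replicates, which makes 27 libraries. The value analysed is the boundary, how far from its start site the wave of new RNA had reached along a transcript, given in steps of 100 bases. The comparisons ask how far the wave had moved at each time and whether the genotypes differed.

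RNAPII pauses soon after initiation, and the kinase P-TEFb releases it into the gene body, where it crosses exons and long introns until it terminates. DRB inhibits this kinase, so its removal lets polymerases set out together and the leading edge of new RNA can be followed along a long gene. The R749H form of RNAPII was made as a slowly elongating enzyme.

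The promoters of 5 members are printed because the share of boundaries at 2.5 kb, the commonest value, differed with the CG content of the promoter. Each run holds 250 bases before the start site and the first 50 bases of the transcript, 5′ to 3′ on the transcript's strand (GRCm38, RefSeq copy of the genome), with CG in capitals. CG read on one strand is CG on the other as well. Sec24d encodes a cargo adaptor of COPII vesicles, Usp45 a deubiquitinase and Ints4 a subunit of the Integrator complex. Arhgef38 encodes a guanine nucleotide exchange factor and Pnpla8 a phospholipase. All 5 were chosen by their values, Sec24d for boundaries above 2.5 kb in all 18 libraries of 5 and 15 min, Usp45 and Ints4 as limma calls, and Arhgef38 and Pnpla8 for boundaries at 2.5 kb in all 18, so they are examples and no comparison. The windows are chr3:123267205-123267504 (plus strand), chr4:21776022-21776321 (plus), chr7:97480706-97481005 (plus), chr3:133234840-133235139 (minus) and chr12:44221120-44221419 (plus), in the order printed.
Sec24d: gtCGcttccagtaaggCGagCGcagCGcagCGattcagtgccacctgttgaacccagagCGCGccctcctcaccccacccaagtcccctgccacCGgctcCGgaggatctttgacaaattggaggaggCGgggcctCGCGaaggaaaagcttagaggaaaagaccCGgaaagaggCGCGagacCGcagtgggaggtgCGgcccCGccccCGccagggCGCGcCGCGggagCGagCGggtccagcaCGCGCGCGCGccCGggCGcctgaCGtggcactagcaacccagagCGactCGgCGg
Usp45: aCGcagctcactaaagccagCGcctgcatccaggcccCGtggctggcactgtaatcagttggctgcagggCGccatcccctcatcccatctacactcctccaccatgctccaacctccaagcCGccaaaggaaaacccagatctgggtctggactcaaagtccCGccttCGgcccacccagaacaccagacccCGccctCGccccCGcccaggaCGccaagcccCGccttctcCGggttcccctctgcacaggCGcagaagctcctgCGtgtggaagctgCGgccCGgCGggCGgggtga
Ints4: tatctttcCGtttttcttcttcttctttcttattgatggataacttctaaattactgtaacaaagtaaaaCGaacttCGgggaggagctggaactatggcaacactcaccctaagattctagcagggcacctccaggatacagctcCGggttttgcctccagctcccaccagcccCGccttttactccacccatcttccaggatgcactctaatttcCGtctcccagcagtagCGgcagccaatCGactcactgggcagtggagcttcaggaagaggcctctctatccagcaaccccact
Arhgef38: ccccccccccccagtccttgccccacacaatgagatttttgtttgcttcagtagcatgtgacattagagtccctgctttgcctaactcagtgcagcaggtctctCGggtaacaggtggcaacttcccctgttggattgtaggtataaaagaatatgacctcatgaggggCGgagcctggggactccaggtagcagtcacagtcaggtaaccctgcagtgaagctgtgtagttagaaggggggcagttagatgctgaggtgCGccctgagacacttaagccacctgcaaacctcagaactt
Pnpla8: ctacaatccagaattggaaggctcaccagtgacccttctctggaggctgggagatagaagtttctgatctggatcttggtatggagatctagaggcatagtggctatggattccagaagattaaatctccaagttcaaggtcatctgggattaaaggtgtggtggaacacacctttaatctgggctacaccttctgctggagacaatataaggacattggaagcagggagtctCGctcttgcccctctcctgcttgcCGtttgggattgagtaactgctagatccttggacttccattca

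These windows held 36, 19, 8, 3 and 2 CG, with CpG ratios (CG found over that given by the C and G content) of 0.99, 0.61, 0.45, 0.14 and 0.12, respectively. At least 1 CG was held by 94.6% of 32851 RefSeq promoters of the same length, with a median of 7.0 CG, and by 97.8% of the promoters of the 6032 members, with a median of 16. The boundary of Sec24d was at 2.5 kb in 0 of 9 libraries at 5 min, 0 of 9 at 15 min and 8 of 9 at 30 min. Usp45 had 0, 6 and 9 of 9 libraries at 2.5 kb at these times, and Ints4 had 0, 5 and 9. The transcripts of Arhgef38 and Pnpla8 were at 2.5 kb in 9 of 9 libraries at 5 min, 9 of 9 at 15 min and 8 of 9 at 30 min.

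Of the 6032 members, 6008 were found in GENCODE M21 by identifier, and 4250 (70.5%) were protein-coding transcripts. The median member spanned 75.9 kb, with 11 exons and a first intron of 17.8 kb. Members are not independent of each other, since 879 shared a start site with another member. A boundary was given in all 18 libraries of 5 and 15 min for 4328 members (called complete members below), in all 9 libraries of 30 min for 4563, and in none of the 27 for 382. The largest boundary of any transcript was 59.3 kb, so the wave was never placed at the far end of a member.

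A boundary of exactly 2.5 kb made up 38.1% of the 142545 member boundaries, whereas the next commonest value, 2600 bases, made up 0.467%. What the value of 2.5 kb stands for is not given in the sources used here, so results are shown with and without these boundaries. Some libraries stood apart. WT/WT replicate 2 had a median boundary of 17.1 kb at 5 min, against 8.20 and 9.5 kb in the other WT/WT libraries. At 15 min WT/WT replicate 2 had 45.4% of its boundaries at 2.5 kb, against 28.6% and 23.0%. Slow/slow replicate 2 at 30 min gave a boundary for 77.4% of members, and every other library for at least 85.1%. The number of reads behind a boundary is not known from these values.

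At 15 min, fewer members of this class were at 2.5 kb in slow/slow cells than in WT/WT or WT/slow cells, with no overlap between libraries. The share at 2.5 kb at 15 min was 28.6%, 45.4% and 23.0% in the WT/WT libraries (replicates 1, 2 and 3). It was 32.9%, 25.5% and 22.7% in WT/slow and 20.8%, 17.4% and 18% in slow/slow libraries. Thus every slow/slow library lay below every library of the other genotypes. The means were 32.3% ± 11.6 (SD, n = 3) in WT/WT, 27% ± 5.27 in WT/slow and 18.7% ± 1.84 in slow/slow cells. The difference between slow/slow and WT/WT was -13.6 percentage points (exact two-sided permutation test, p = 0.1, adjusted p = 0.450 over 9 comparisons), and that between slow/slow and WT/slow was -8.33 points (exact permutation p = 0.1, adjusted p = 0.450). With 3 against 3 libraries this test cannot go below 0.1. Without WT/WT replicate 2 the first difference was -7.11 points, and without WT/slow replicate 1 the second was -5.40 points. WT/slow differed from WT/WT by -5.29 points (exact permutation p = 0.6), which turned to 1.22 points without WT/WT replicate 2 and became -9.96 without WT/WT replicate 3, -8.22 without WT/slow replicate 1 and -3.12 without WT/slow replicate 3. The lower share in slow/slow cells was not particular to this class. At 100 to 200 kb the mean shares were 31.7% in WT/WT, 26.3% in WT/slow and 20.8% in slow/slow cells. At 30 to 60 kb they were 54.7%, 45.7% and 32.3% in this order, whereas at 20 to 30 kb they were 63.3%, 65.7% and 63.9%.

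At 5 min the genotypes overlapped. The share at 2.5 kb was 21.4%, 16.5% and 18.9% in WT/WT, 24.5%, 18.6% and 23.1% in WT/slow and 17.1%, 19.5% and 21.6% in slow/slow libraries. Slow/slow minus WT/WT was 0.481 points (exact permutation p = 0.700), and this turned to -0.742 without WT/WT replicate 2 and to -0.633 without slow/slow replicate 3. At 30 min most boundaries of the class were at 2.5 kb in every library. The shares were 59.8%, 68.3% and 71.1% in WT/WT, 66.5%, 72.9% and 73.3% in WT/slow and 64.7%, 70.3% and 65.7% in slow/slow libraries. Slow/slow minus WT/WT was 0.533 points (exact permutation p = 1.00), which turned to -2.78 without WT/WT replicate 1 and to -1.14 without slow/slow replicate 2. WT/slow was 4.53 points above WT/WT at 30 min and 3.11 points above it at 5 min (exact permutation p = 0.300 for both). The 30 min value became 1.22 points without WT/WT replicate 1 and 6.90 without WT/WT replicate 3. The 5 min value became 1.89 points without WT/WT replicate 2, 1.90 without WT/slow replicate 1 and 4.86 without WT/slow replicate 2.

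**Figure D1:**
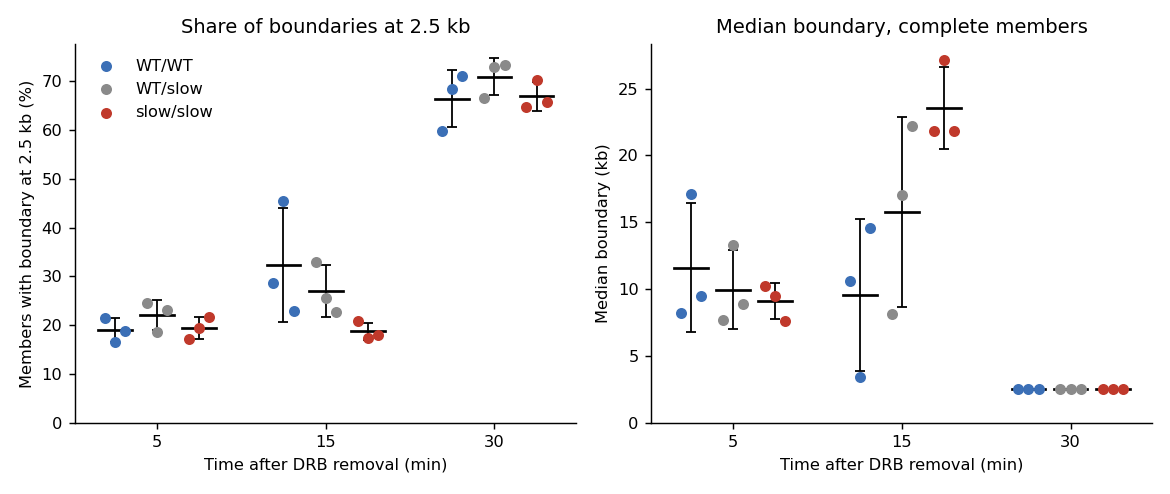
Share of member boundaries at 2.5 kb (left, %) and median boundary of complete members (right, kb) against time after DRB removal, 1 point per library, with the mean (bar) and SD of 3 libraries. At 15 min the slow/slow libraries lie lowest in share (17.4% to 20.8%), and at 30 min every median is 2.5 kb.

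The median boundary of complete members was compared in the same way. At 5 min it was 8.20, 17.1 and 9.5 kb in WT/WT libraries, 7.70, 13.3 and 8.90 kb in WT/slow and 10.2, 9.5 and 7.60 kb in slow/slow libraries, so the genotypes overlapped. At 15 min it was 10.6, 3.40 and 14.6 kb in WT/WT libraries, 8.15, 17.0 and 22.2 kb in WT/slow and 21.8, 27.1 and 21.8 kb in slow/slow libraries. All slow/slow libraries lay above all WT/WT libraries, and the difference in means was 14.0 kb (exact permutation p = 0.1, adjusted p = 0.900 over 9 comparisons). Among the 597 members that lay above 2.5 kb in all 18 libraries, the same difference turned to -5.07 kb (exact permutation p = 0.1). It kept its direction at 5.10 kb with the 2.5 kb boundaries left out (exact permutation p = 0.200) and at 2.77 kb as a mean over members (exact permutation p = 0.300). At 5 min, slow/slow minus WT/WT was -2.5 kb (exact permutation p = 0.700), and 0.250 kb without WT/WT replicate 2. WT/slow minus WT/WT was -1.63 kb, and 1.12 kb without that library. Each WT/slow library of 5 min lay below the WT/WT library of the same number, and above it in share at 2.5 kb. Slow/slow minus WT/slow was -0.867 kb, and 0.800 kb without WT/slow replicate 2.

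The spread of boundaries over the gene also differed between genotypes at 15 min, in ranges chosen after the data were seen and not tested. Boundaries beyond 40 kb made up 17.5%, 13.4% and 17.8% of those in WT/WT libraries, 9.71%, 15.8% and 22.5% in WT/slow and 4.32%, 4.67% and 3.54% in slow/slow libraries. Every slow/slow library thus held fewer far boundaries than every other library. Between 20 and 40 kb the order was the opposite. This range held 19.9%, 12.9% and 26.7% of boundaries in WT/WT, 24.1%, 28.0% and 28.8% in WT/slow and 47.8%, 54.1% and 48.3% in slow/slow libraries. Slow/slow cells therefore had fewer members at both ends, at 2.5 kb and beyond 40 kb. Transcripts of 100 to 200 kb also had fewer far boundaries in slow/slow cells. There the mean share beyond 40 kb was 17.8% in WT/WT, 16.0% in WT/slow and 4.71% in slow/slow cells.

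**Figure D2:**
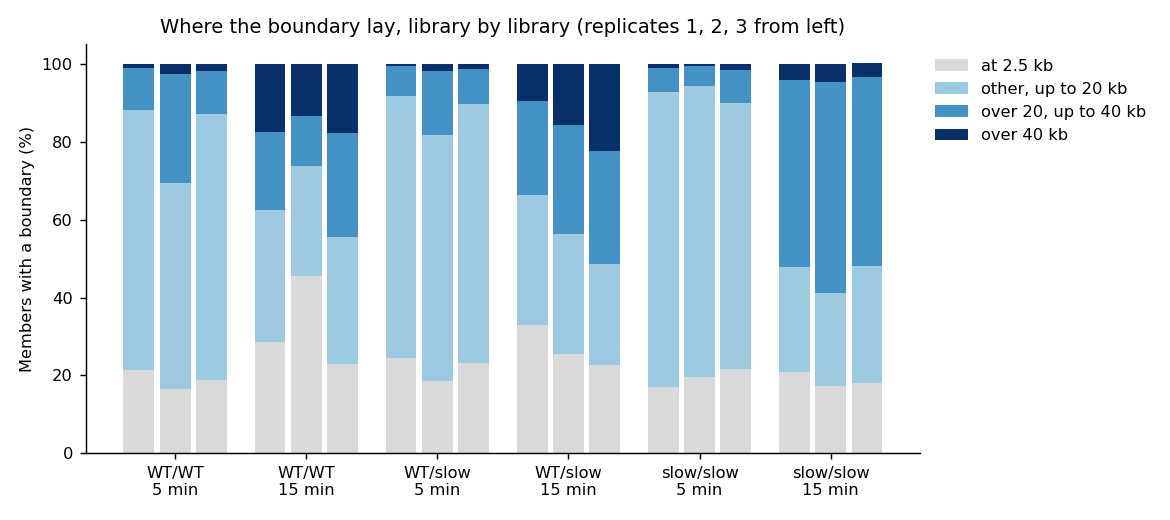
Share (%) of member boundaries at 2.5 kb, at any other value up to 20 kb, over 20 and up to 40 kb, and beyond 40 kb, 1 bar per library for each genotype at 5 and 15 min (replicates 1, 2 and 3 from left). The middle range fills 47.8% to 54.1% of the slow/slow bars at 15 min and 12.9% to 28.8% of the others at that time.

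The 597 members above 2.5 kb in all 18 libraries came from 334 genes. This choice was made on the values compared, and at 15 min more boundaries were at 2.5 kb in WT/WT (32.3%) than in slow/slow cells (18.7%). Their median boundary at 5 min was 11.4, 18.3 and 11.9 kb in WT/WT libraries, 11.1, 14.6 and 11.1 kb in WT/slow and 11.6, 10 and 8.50 kb in slow/slow libraries. At 15 min it was 34.0, 32.4 and 33.6 kb in WT/WT libraries, 26.9, 33.9 and 35.5 kb in WT/slow and 28.9, 30.2 and 25.7 kb in slow/slow libraries. The slow/slow libraries lay below all WT/WT libraries, whereas WT/slow overlapped both. One transcript was then taken for each protein-coding gene outside chromosome 18, leaving 225 genes. Of these, 139 (61.8%) had a lower mean boundary at 15 min in slow/slow cells relative to WT/WT. In 46 genes every slow/slow library lay below every WT/WT library, and in 12 every one lay above. Among the 538 genes of any length selected in the same way, 19.0% lay below and 7.99% above.

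**Figure D3:**
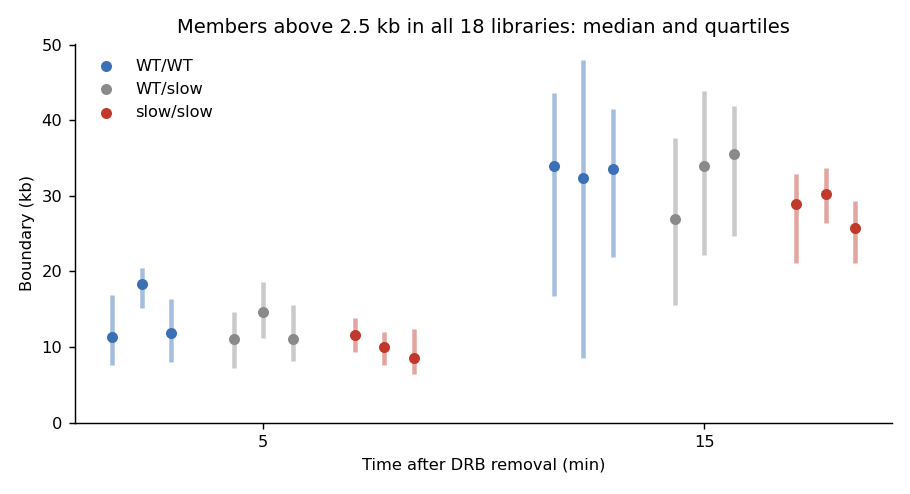
Median (point) and quartiles (line) of the boundary, in kb, over the 597 members above 2.5 kb in all 18 libraries, 1 point per library. At 15 min the WT/WT medians span 32.4 to 34.0 kb and the slow/slow medians 25.7 to 30.2 kb.

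From 5 to 15 min, the median boundary of complete members was higher in every slow/slow library of 15 min than in any of 5 min, whereas the WT/WT libraries of these times overlapped. These medians count the 2.5 kb boundaries as positions, so no rate is drawn from them. The mean of the library medians went from 9.10 ± 1.35 to 23.6 ± 3.06 kb in slow/slow (SD, n = 3), an advance of 14.5 kb (exact permutation p = 0.1). It went from 9.97 ± 2.95 to 15.8 ± 7.10 kb in WT/slow, an advance of 5.82 kb (exact permutation p = 0.300), which became 9.63 kb without WT/slow replicate 1 and 2.61 kb without replicate 3 at 15 min. In WT/WT it went from 11.6 ± 4.81 to 9.53 ± 5.68 kb, a change of -2.07 kb (exact permutation p = 0.700). The WT/WT change turned positive without replicate 2, to 0.683 kb when its 5 min library was left out, 1.00 kb when its 15 min library was, and 3.75 kb without both. The advance was 16.5 kb larger in slow/slow than in WT/WT (exact two-sided permutation test over 400 arrangements, p = 0.0350, adjusted p = 0.105 over 3 comparisons), and 10.7 kb larger without both libraries of WT/WT replicate 2, an alternative chosen after seeing the data. The advance in WT/slow was 7.88 kb above that in WT/WT (exact permutation p = 0.215). This became 5.13 kb without the 5 min library of WT/WT replicate 2, 4.82 kb without its 15 min library, 2.07 kb without both and 4.67 kb without WT/slow replicate 3 at 15 min. It was 3.38 kb with the 2.5 kb boundaries left out and 0.367 kb among members above 2.5 kb in all 18 libraries. Slow/slow was 8.65 kb above WT/slow (exact permutation p = 0.130), and 4.83 kb without WT/slow replicate 1 at 15 min. That difference was 4.92 kb with the 2.5 kb boundaries left out, 2.24 kb as a mean over members and turned to -1.60 kb among members above 2.5 kb in all 18 libraries. The part of the 2.5 kb boundaries in these differences was not tested.

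The advance without 2.5 kb values depended on how they were set aside. With these boundaries left out and all others kept, it was 8.80 kb in WT/WT, 12.2 kb in WT/slow and 17.1 kb in slow/slow cells. The difference between slow/slow and WT/WT was then 8.30 kb (exact permutation p = 0.0450). Among the 597 members above 2.5 kb in all 18 libraries, the advance was 19.5 kb in WT/WT (1.95 kb/min), 19.8 kb in WT/slow (1.98 kb/min) and 18.2 kb in slow/slow cells (1.82 kb/min). There the difference between slow/slow and WT/WT was -1.23 kb (exact permutation p = 0.750), opposite in direction, which does not show that the advance was equal.

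Transcript by transcript, limma called 325 complete members different between slow/slow and WT/WT at 15 min (adjusted p under 0.05, Benjamini-Hochberg over 24861 transcripts). Of the 4328 members tested, 240 were higher in slow/slow (5.55%) and 85 lower (1.96%). Over all 24861 transcripts 5.72% were called higher and 1.34% lower, so the share of members called higher was near the background. Higher calls were 73.8% of member calls, and 87.1% on the log2 scale. Most higher calls involved the 2.5 kb value, since 215 of 240 had at least 1 WT/WT library there and 73 had all 3. Of the 85 lower calls, 10 had at least 1 slow/slow library at 2.5 kb and 75 had none of 6 libraries there. Where every boundary was above 2.5 kb, limma called 9 of 597 members higher and 26 lower, against 2.5% and 3.87% of 1679 transcripts of any length. With the 2.5 kb boundaries left out, an alternative chosen after seeing the data, it called 52 of 2105 members higher and 108 lower, against 4.36% and 3.66% of 6904 transcripts. The higher count was 158 without WT/WT replicate 2, 154 without it at both times, and 154 without slow/slow replicate 2. The lower count was 131 without WT/WT replicate 3, 54 without slow/slow replicate 2 and 36 without slow/slow replicate 3.

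Members without 2.5 kb values at 15 min are given apart, a choice made on the values compared. Among the 1378 members with none of their 6 boundaries at 2.5 kb, 875 (63.5%) had a lower mean in slow/slow cells, with a median difference of -3.87 kb. The same choice among all 24861 transcripts left 4503, of which 58.2% had a lower mean, with a median difference of -1.80 kb. Over all 4328 complete members the median difference was 0.867 kb.

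The lower calls with the smallest p among the named genes are given first. Tgfb2, a ligand of the TGF-beta family, had boundaries of 46.1, 43.1 and 45 kb in WT/WT and 7.4, 7.5 and 7.1 kb in slow/slow libraries at 15 min, all in its first intron. WT/slow libraries lay between, at 19.7, 19.8 and 19.9 kb. The fall in slow/slow was -37.4 ± 5.5 kb (SE, limma adjusted p = 0.000816). Trpc6, a calcium-permeable cation channel, lay at 42.8, 38.0 and 35.1 kb in WT/WT and at 5.0, 2.5 and 9.8 kb in slow/slow libraries (limma adjusted p = 0.000182). Grb10, an imprinted adaptor of growth factor receptors, lay at 32.0, 41.5 and 34.2 kb in WT/WT and at 10, 16.4 and 12 kb in slow/slow libraries (limma adjusted p = 2.27e-05). WT/slow libraries of Grb10, at 34.2, 37.3 and 34.9 kb, overlapped WT/WT. This Grb10 transcript started 10712 bases inside its gene. Rbfox3, a neuronal splicing regulator, lay at 11.2, 16.5 and 16.1 kb in WT/WT and at 2.8, 6.1 and 0.9 kb in slow/slow libraries (limma adjusted p = 0.000737). Its WT/slow libraries lay at 3.0, 2.5 and 2.5 kb. This Rbfox3 transcript started 341687 bases inside its gene, so its boundary does not follow a wave from the first start site of the gene.

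Other large falls came from genes readable in all 18 libraries. Capzb, a subunit of the actin capping protein, lay at 51.5, 51.3 and 50.3 kb in WT/WT and at 5.5, 33.4 and 24.2 kb in slow/slow libraries (limma adjusted p = 0.0376). Its call was lost in 8 of 14 alternatives, among them the log2 scale (limma adjusted p = 0.145), without each WT/WT library at 15 min (adjusted p = 0.0883, 0.0942 and 0.0673, limma) and without slow/slow replicate 1 (0.117) or 3 (0.0716). Spats2 lay at 44.8, 47.5 and 57.2 kb in WT/WT and at 23.9, 32.9 and 21.2 kb in slow/slow libraries (limma adjusted p = 0.0288). That call was lost on the log2 scale (limma adjusted p = 0.217), without WT/WT replicate 2 (0.0606) or 3 (0.0892) and without slow/slow replicate 1 (0.0672) or 3 (0.102). Cbfa2t3, a transcriptional corepressor, lay at 48.0, 50.8 and 50.8 kb in WT/WT and at 30.2, 32.5 and 12.3 kb in slow/slow libraries, and Susd4, a membrane protein with complement control repeats, at 46.5, 48.8 and 45.7 kb and at 26.3, 24.3 and 19.7 kb. Neither passed the limma threshold (adjusted p = 0.0659 and 0.129), although their libraries did not overlap.

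In the higher calls given next, most WT/WT boundaries of 15 min were at 2.5 kb, a value whose meaning is not given in the sources. These transcripts of Usp45, Dcbld2 and Ints4 spanned 61.60, 61.28 and 60.44 kb, near the lower limit of the class. In WT/WT cells at 15 min, the share at 2.5 kb was 54.7% at 30 to 60 kb and 32.3% in the class. The part of length in these calls was not tested. Usp45 lay at 2.5 kb in all WT/WT and all WT/slow libraries at 15 min and at 30.2, 29.1 and 26.9 kb in slow/slow libraries (difference 26.2 ± 1.79 kb, SE, limma adjusted p = 2.17e-06). At 5 min the same WT/WT replicates had placed it at 12.8, 20.4 and 14.5 kb. Ints4 lay at 2.5, 2.5 and 5.9 kb in WT/WT and at 27.6, 33.9 and 28.3 kb in slow/slow libraries (limma adjusted p = 4.28e-06). Its WT/WT libraries had been at 20.9, 21.2 and 24.4 kb at 5 min. Dcbld2, a transmembrane receptor-like protein, lay at 2.5, 2.5 and 4.2 kb in WT/WT and at 39.3, 36.6 and 32.3 kb in slow/slow libraries (limma adjusted p = 2.83e-06). Its WT/slow libraries, at 34.8, 29.6 and 28.4 kb, were also far from the start site, unlike those of Usp45 and Ints4.

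Rises were also found where no 2.5 kb value entered. C130060K24Rik lay at 8.3, 8.5 and 4.5 kb in WT/WT libraries, 20.4, 19.1 and 23.7 kb in WT/slow and 27.3, 25.3 and 26 kb in slow/slow libraries (limma adjusted p = 3.75e-06), so the genotypes did not overlap. Map3k4, a kinase upstream of p38 and JNK, lay at 8.6, 8.9 and 5.0 kb, 20.7, 20.7 and 22.3 kb, and 33.7, 33.7 and 28.9 kb in the same order (limma adjusted p = 0.00200). Bend7, a BEN-domain protein, lay at 6.2, 5.3 and 5.6 kb in WT/WT and at 31.0, 28.6 and 29.3 kb in slow/slow libraries (limma adjusted p = 0.00576). For Bend7 the WT/slow libraries were the highest, at 39.0, 41.9 and 42.8 kb. Csrnp3, a nuclear protein, lay at 6.7, 7.3 and 10.4 kb in WT/WT and at 33.4, 32.7 and 54.6 kb in slow/slow libraries (limma adjusted p = 0.00391). This Csrnp3 transcript started 84370 bases inside its gene. Sgce, the epsilon subunit of sarcoglycan, lay at 3.5, 4.3 and 4.4 kb in WT/WT and at 31.9, 26.4 and 32.3 kb in slow/slow libraries, but did not pass (limma adjusted p = 0.0698).

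**Figure D4:**
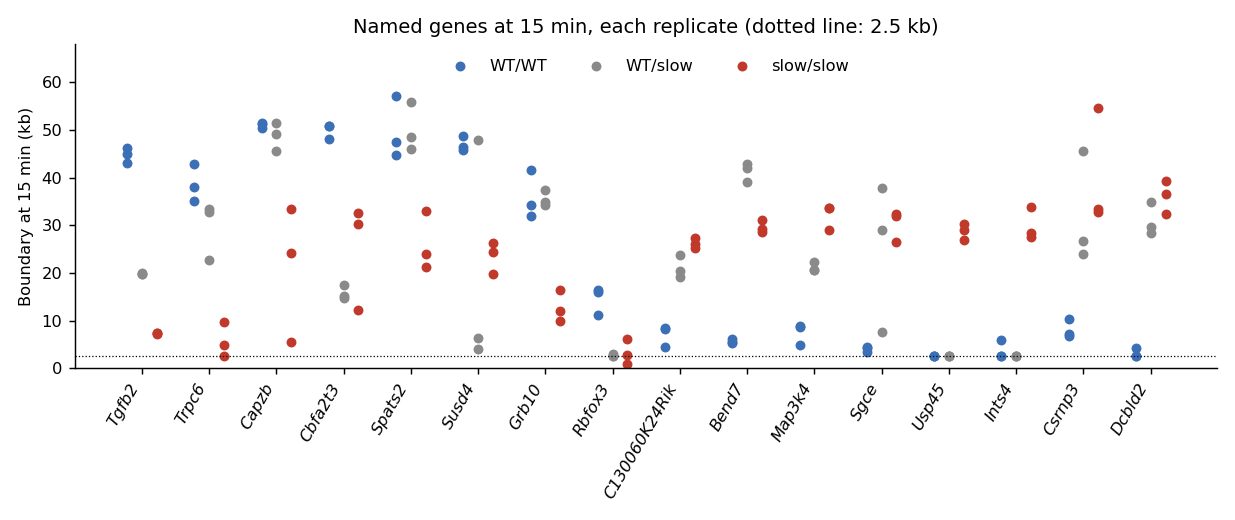
Boundary at 15 min (kb) of 16 named genes, 1 point per replicate, for WT/WT (blue), WT/slow (grey) and slow/slow (red), with a dotted line at 2.5 kb. Genes on the left lie lower in slow/slow than in WT/WT libraries, such as Tgfb2 (7.1 to 7.5 kb against 43.1 to 46.1 kb), and genes on the right higher.

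Gene groups were described by their counts at 15 min, 1 transcript per gene. Over all protein-coding genes of the class outside chromosome 18, 1629 of 2163 were measured in all 18 libraries, and limma called 112 higher and 27 lower in slow/slow cells relative to WT/WT. Of 13 measured genes for RNAPII elongation and termination factors, 2 were higher (Cstf3, a cleavage stimulation factor, and Med13, of the Mediator kinase module) and 0 lower. Of 21 splicing and RNA processing genes, 3 were higher (Celf1 and Rbm26, RNA-binding proteins, and Tnrc6a, of microRNA silencing) and 0 lower. Of 40 chromatin regulators, 2 were higher (Bcor, a corepressor, and Trim33) and 0 lower. Of 26 genes of DNA repair, replication and chromosome segregation, 5 were higher (the helicase Blm, the cohesin regulator Pds5a, Smc5, the topoisomerase Top1 and the damage response protein Trp53bp1) and 0 lower. Genes named for their calls in these groups were chosen after the values were seen.

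Of 29 measured ubiquitin ligases and deubiquitinases, 6 were higher (the ligases Fbxo11, Herc4, Ube3a and Ube4b, and the deubiquitinases Usp31 and Usp45) and 0 lower. Of 27 genes of the pluripotency network and LIF, WNT and ERK signalling, 3 were higher (the BMP receptor Bmpr1a, the RNA-binding protein Lin28b and Map3k4) and 1 lower (Tead1, a transcription factor of the Hippo pathway). Of 24 membrane traffic and endosome genes, 3 were higher (Arfgef1, Dennd4c and Rab3gap1, regulators of small GTPases) and 2 lower (Rabgap1 and Sec24d). Of 15 neuronal, synaptic and axon guidance genes, 2 were higher (the semaphorin Sema4d and the synaptic vesicle protein Syn1) and 0 lower. The counts of lower calls were 0 in 6 of 8 groups, but each group was small, and no test compared a group with the rest of the class.

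Both lower membrane traffic genes lay above 2.5 kb in all 18 libraries of 5 and 15 min. Sec24d lay at 47.9, 43.2 and 44.0 kb in WT/WT libraries, 50.1, 39.0 and 43.7 kb in WT/slow and 30.8, 28.9 and 21.7 kb in slow/slow libraries at 15 min, so that slow/slow alone stood apart (limma adjusted p = 0.00649, and 0.196 on the log2 scale). The mean front lay in intron 8 in WT/WT and intron 6 in slow/slow cells. Rabgap1, a GTPase-activating protein for Rab proteins, lay at 44.2, 48.0 and 43.7 kb in WT/WT and 23.8, 32.3 and 25.2 kb in slow/slow libraries (limma adjusted p = 0.0209). Its call was lost on the log2 scale (limma adjusted p = 0.509), without WT/WT replicate 2 (0.0772) and without slow/slow replicate 1 (0.0595) or 3 (0.0707). Scfd2, a Sec1-family protein, overlapped between genotypes, at 51.3, 32.5 and 46.8 kb in WT/WT and 28.9, 35.6 and 37.4 kb in slow/slow libraries.

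In the other groups Map3k4 was the only readable gene called. Pms1, a mismatch repair protein, lay at 43.6, 48.9 and 36.2 kb in WT/WT and 30.3, 32.1 and 27.9 kb in slow/slow libraries, without overlap (limma adjusted p = 0.302). Fbxl20, an F-box protein of ubiquitin ligases, lay at 36.3, 49.7 and 35.0 kb and at 29.4, 37.2 and 23.3 kb, with overlap. Another F-box protein, Fbxw8, and the ligase Herc2 overlapped as well, with mean boundaries of 43.2 and 30.4 kb in WT/WT and 32.0 and 33.1 kb in slow/slow cells. Cdk8, the Mediator kinase, stood at 15.3, 15.3 and 13.0 kb in WT/WT and 13.7, 13.7 and 13.6 kb in slow/slow libraries at 15 min, close to its WT/WT values of 14.0, 15 and 12.2 kb at 5 min. Its WT/WT boundary thus stayed in intron 1 at both times. At 5 min Cdk8 lay at 13.7, 6.5 and 6.5 kb in slow/slow and at 14.4, 8.7 and 7.8 kb in WT/slow libraries.

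WT/WT replicate 2 differed from its replicates in several of these genes at 15 min. Med14, a core Mediator subunit, lay at 45.9, 2.6 and 32.4 kb in WT/WT libraries, and Kdm5b, a histone H3 lysine demethylase, at 47.0, 5.4 and 45 kb. Acvr2a, an activin receptor, lay at 55.2, 4.7 and 46.5 kb, and Homer1, a postsynaptic scaffold protein, at 46.1, 3.1 and 32.7 kb. In slow/slow libraries Med14 lay at 24.2, 33.5 and 31.7 kb, Kdm5b at 33.1, 33.3 and 27.6 kb, Acvr2a at 36.3, 22.8 and 25.3 kb and Homer1 at 31.5, 35.5 and 28.6 kb. Their SDs were 4.93, 3.23, 7.18 and 3.46 kb, against 22.2, 23.5, 27 and 22 kb in WT/WT cells. Map3k1, a kinase upstream of JNK, had SDs of 15.8 kb in WT/WT and 4.61 kb in slow/slow cells, and the WNT coreceptor Lrp5 had SDs of 23.9 and 5.04 kb. The DNA methyltransferase Dnmt3a and the chromatin remodeller Chd9 had mean boundaries of 16.0 and 26.4 kb in WT/WT and 22.8 and 21.5 kb in slow/slow cells, and neither passed (limma adjusted p = 0.575 and 0.941). The Chd9 transcript started 80262 bases inside its gene. Among members with none of 3 libraries at 2.5 kb, the median SD between WT/WT replicates at 15 min was 8.49 kb (2049 members). It was 8.83 kb between WT/slow replicates (2477 members) and 4.53 kb between slow/slow replicates (3462 members), so the members differed between genotypes. In the same order it was 6.07, 4.90 and 2.84 kb at 5 min and 4.04, 5.35 and 6.90 kb at 30 min.

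Fewer members were called at the other times. At 5 min limma called 2 members higher and 5 lower in slow/slow cells relative to WT/WT, against 0.117% and 0.209% of all transcripts. The count of 7 became 11 without WT/WT replicate 1, 18 without WT/WT replicate 3, 4 without slow/slow replicate 3, and 4, 3 and 4 without WT/slow replicates 1, 2 and 3 at 15 min. At unadjusted p under 0.05 the counts at 5 min were 39 higher and 158 lower. These 197 of 4328 members were a share under 0.05, which this threshold passes on average with no change. Of 2383 members with none of 6 boundaries at 2.5 kb at 5 min, 1873 (78.6%) had a lower mean in slow/slow cells, with a median difference of -3.47 kb, against 75.1% and -2.77 kb over 11392 such transcripts of any length. Over all complete members that median was -2.40 kb, and -0.400 kb without WT/WT replicate 2 at both times.

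At 30 min limma called 31 higher and 25 lower of 4563 members, against 0.548% and 0.438% of 36342 transcripts. Higher calls were 55.4% of these, and 71.8% on the log2 scale. The count of 56 became 111 without WT/WT replicate 3, and 113, 111 and 106 without slow/slow replicates 1, 2 and 3. With the 2.5 kb boundaries left out, the library medians at 30 min ran from 8.10 to 10.8 kb in slow/slow and from 4.85 to 6.90 kb in WT/WT cells, without overlap (difference 3.42 kb, exact permutation p = 0.1).

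The heterozygous cells were compared with both homozygous genotypes at 15 min. In WT/slow against WT/WT, limma called 92 members higher (2.13%) and 35 lower (0.809%), near the 1.73% and 0.587% of all transcripts. Higher calls were 72.4% of these, and 82.4% on the log2 scale. Without WT/WT replicate 2 at both times the calls were 81 higher and 76 lower (51.6% higher), against 373 and 343 of 24861 transcripts. With the 2.5 kb boundaries left out, 53 of 2105 members were higher and 50 lower, against 235 and 145 of 6904 transcripts. Both alternatives were chosen after seeing the data. The count of 127 became 203 without WT/WT replicate 3 and 245 without WT/slow replicate 1. In slow/slow against WT/slow it called 80 higher and 46 lower, against 2.44% and 0.700%. Of the 80 higher calls, 66 had at least 1 WT/slow library at 2.5 kb. With the 2.5 kb boundaries left out, 4 of 2105 members were higher and 26 lower, against 0.724% and 1.06% of 6904 transcripts. Both comparisons share libraries with slow/slow against WT/WT and are not independent of it.

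Within each genotype, more members advanced than receded between 5 and 15 min. In WT/WT cells limma called 316 members higher at 15 min and 32 lower, against 3.35% and 6.03% of all transcripts. Higher calls were 90.8% of these, and 60.2% on the log2 scale. In WT/slow cells it called 404 higher and 30 lower, against 5.18% and 6.21%, with 93.1% of calls higher, and 80.4% on the log2 scale. In slow/slow cells it called 307 higher and 11 lower, against 5.91% and 4.42%. The WT/slow count of 434 became 274 without WT/slow replicate 3 at 5 min. The slow/slow count of 318 became 514 without WT/WT replicate 2 at 15 min, 144 without slow/slow replicate 2 at 15 min, and 171, 160 and 167 without slow/slow replicates 1, 2 and 3 at 5 min. Where every boundary lay above 2.5 kb, 208 of 597 members were higher and 0 lower in WT/WT, 235 and 0 in WT/slow, and 186 and 1 in slow/slow cells. Over the 1679 such transcripts of any length, 29.5%, 37.8% and 30% were higher in the same order.

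The advance itself differed between slow/slow and WT/WT cells for 106 members, 94 with a larger and 12 with a smaller advance in slow/slow (limma interaction), against 2.85% and 0.229% of all transcripts. Where every boundary was above 2.5 kb, 1 of 597 members was called with a larger and 3 with a smaller advance. Over the 1679 such transcripts of any length these calls were 0.715% and 0.179%. With the 2.5 kb boundaries left out, calls were 17 larger and 5 smaller of 2105 members, against 1.16% and 0.101% of 6904 transcripts. The count of 106 became 174 without WT/WT replicate 3, 173 without WT/slow replicate 1 and 185 without WT/slow replicate 3, all at 15 min, and 58 without both libraries of WT/WT replicate 2. Among readable genes, the largest WT/WT advances were those of Rasa2, a GTPase-activating protein for Ras (38.6 kb), Spats2 (37.5 kb) and Nln, the peptidase neurolysin (35.1 kb). Their slow/slow advances were 30, 16.7 and 22.1 kb. The lowest WT/WT values were -24.4 kb for Sgms1, a sphingomyelin synthase, -10.1 kb for Efemp1, an extracellular matrix protein, and -6.67 kb for Map3k4, where slow/slow had 1.70, 10.9 and 20.4 kb. Of these genes Map3k4 passed (limma adjusted p = 0.0189). All were chosen by their WT/WT advances, so the slow/slow values set beside them are examples and no comparison. In WT/WT libraries Sgms1 lay at 18.8, 28.0 and 47.1 kb at 5 min and at 7.1, 3.5 and 10 kb at 15 min. This Sgms1 transcript started 178724 bases inside its gene.

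The share at 2.5 kb differed between members split by promoter CG content at 5 min and, in the opposite order, at 30 min. The CpG ratio is the number of CG over that given by the C and G content of the 300 bases, and 3217 members had a ratio of at least 0.6 and 2815 a lower one. At 5 min, 8.75% ± 2.96 of boundaries with a high ratio were at 2.5 kb in WT/WT cells (SD, n = 3), against 33% ± 2.32 with a low ratio. In slow/slow cells these shares were 7.22% ± 2.17 and 36.9% ± 2.29. At 30 min they were 74.3% ± 8.47 and 55.8% ± 2.63 in WT/WT, and 76.8% ± 2.75 and 52.4% ± 1.89 in slow/slow cells. The low group had the higher share in 3 of 3 libraries of each genotype at 5 min and in 0 of 3 at 30 min. No test was made of this order, which was seen in the data. The groups differed in other traits as well. Starts over 10 kb inside the gene made up 7.34% of high-ratio and 41.8% of low-ratio members. Protein-coding transcripts made up 75.9% and 64.2%, and the median first intron was 20.1 and 14.7 kb. The part of these traits in the shares at 2.5 kb was not tested and cannot be told apart from that of CG content here.

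The same split was made at 15 min, and the genotype differences of the high and low groups were not compared by a test. High-ratio promoters had 25.2%, 50.5% and 19.0% of boundaries at 2.5 kb in WT/WT, 31.5%, 21.5% and 15.6% in WT/slow and 11.9%, 9.16% and 8.11% in slow/slow libraries. Slow/slow libraries lay below all others. With a low ratio the shares were 33.3%, 38.6% and 28.7% in WT/WT libraries, 34.9%, 30.8% and 32.1% in WT/slow and 33.3%, 28.6% and 31.2% in slow/slow libraries, and all genotypes overlapped. A boundary was given less often for low-ratio members, for example for 80% against 96.1% in WT/WT replicate 1 at 5 min, and its part in these shares was not tested.

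**Figure D5:**
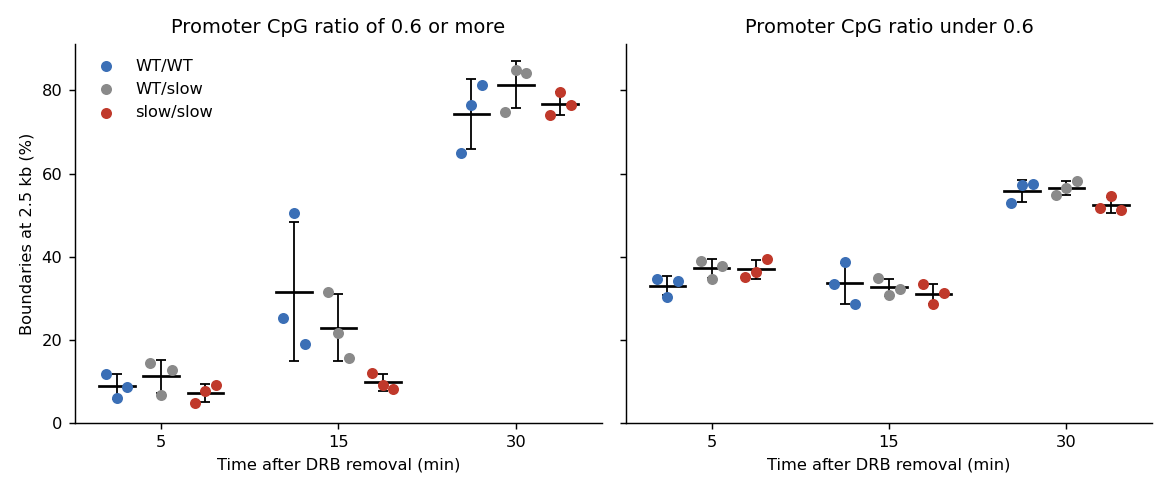
Share (%) of boundaries at 2.5 kb against time after DRB removal for members with a promoter CpG ratio of at least 0.6 (left) and under 0.6 (right), 1 point per library, with the mean (bar) and SD of 3 libraries. The left panel goes from 8.75% at 5 min to 74.3% at 30 min in WT/WT cells, and the right panel from 33% to 55.8%.

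The same transcripts can be followed through the times. Of 3992 members with a boundary in all 27 libraries, 610 (15.3%) lay above 2.5 kb in all 9 libraries of 5 min and at 2.5 kb in all 9 libraries of 30 min. Over all transcripts of the series this held for 11% of 21606. The reverse order was seen in 0 members. The 610 members had a median CpG ratio of 0.87, whereas it was 0.65 over all members of the class, with or without a boundary. The median of the 3992 was not taken, so these medians rest on unlike sets. At the other end, 504 complete members were at 2.5 kb in 10 or more of the 18 libraries of 5 and 15 min. These had a median of 5.0 CG in the promoter, and 48.4% of them started over 10 kb inside their gene. Of the 2006 members at 2.5 kb in 0 to 2 libraries, 13.6% did so, with a median of 24 CG. Besides Arhgef38 and Pnpla8, the complement genes C6 and C7 each had a protein-coding member at 2.5 kb in all 18 libraries, with 8 and 0 CG, and were also named after their values were seen. The promoter of C6 had a high CpG ratio (0.66) and that of Ints4 a low one (0.45), against the order of the groups at 5 min.

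The length class differed from shorter transcripts at 15 min. Within each library, the share at 2.5 kb was lower among members than among the 11913 transcripts of 30 to 60 kb, by a mean difference of -18.2 points (26% against 44.2%, lower in 9 of 9 libraries, exact two-sided sign-flip permutation test, p = 0.00391, the smallest possible, adjusted p = 0.0234 over 12 comparisons). The median boundary was 10.1 kb higher (15.5 against 5.39 kb, higher in 9 of 9 libraries, exact permutation p = 0.00391, adjusted p = 0.0234). Shorter transcripts leave less room for a far boundary. In WT/WT cells at 15 min, 2.16% of boundaries lay above 40 kb at 30 to 60 kb, against 16.2% in the class. The part of this limit in the differences was not tested. Against the 4670 transcripts of 100 to 200 kb the differences at 15 min were -0.247 points (exact permutation p = 0.777) and 0.306 kb (exact permutation p = 0.695), which turned to 0.169 points without replicate 3 and -0.342 kb without replicate 2. At 5 min the share differed from that of these longer transcripts by -2.01 points (lower in 8 of 9 libraries, exact permutation p = 0.0156, adjusted p = 0.0625), and this unadjusted call was lost without replicate 2 (-1.14 points) or replicate 3 (-2.13 points). The median boundary at 5 min was 0.6 kb higher (exact permutation p = 0.0469, adjusted p = 0.141), a call lost without replicate 2 (0.300 kb) or 3 (0.500 kb). At 30 min the share lay 1.43 points above that of the longer transcripts (higher in 7 of 9 libraries, exact permutation p = 0.0625). Without replicate 3 it lay 0.823 points above. Against 30 to 60 kb the shares at 5 min differed by 0.217 points (exact permutation p = 0.621), or -0.285 without replicate 3, and at 30 min by -1.51 points (exact permutation p = 0.141), or -2.81 without replicate 1 (exact permutation p = 0.0312). Inside the class, the share at 15 min was 33.6% ± 12.2 at 60 to 70 kb and 31.1% ± 11.1 at 90 to 100 kb in WT/WT (SD, n = 3), 29.3% ± 5.66 and 25% ± 6.84 in WT/slow, and 18.9% ± 2.22 and 18.4% ± 2.15 in slow/slow cells.

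Transcripts next to the length limits varied on both sides, and the sides were not compared by a test. Just under 60 kb, Taf1b, a subunit of the RNA polymerase I factor SL1, and Pacs2, a sorting protein, had mean boundaries at 15 min of 39.3 and 35.8 kb in WT/WT and 29.8 and 27.6 kb in slow/slow cells. Just above it, Pof1b, an actin-binding protein, had 12.1 and 26.8 kb, and Rnf169, a RING protein of the DNA damage response, 43.8 and 27.6 kb (limma adjusted p = 0.0285). The Rnf169 call was lost in 6 of 14 alternatives, among them the log2 scale (0.342) and without WT/WT replicate 2 (0.113) or slow/slow replicate 2 (0.0602) or 3 (0.0961). Just under 100 kb, Vmp1, an autophagy protein of the endoplasmic reticulum, had 39.0 and 30.5 kb, and Arsg, a lysosomal sulfatase, 16.4 and 14.0 kb. Just above it, Scml4, a Polycomb-related protein, had 7.5 and 4.37 kb, and Serinc5, a multipass membrane protein, 19.7 and 23.3 kb.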

How the data were processed

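Boundary tables of 27 libraries were used, 1 for each of 3 replicates of 3 genotypes at 5, 15 and 30 min; the other 18 labelled samples were not analysed here. The deposited boundary, in bases from the start site to where the wave ends, was made by the authors from reads aligned with Bowtie2 2.2.9 to GRCm38 (mm10) per the submitters' processing notes and compared with the averaged 0 min libraries of the same genotype, which replicates therefore share. The annotation used is not given in the sources used here.

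Members were taken by span, from 60000 to under 100000 bases, and matched to GENCODE M21. Members and gene lists were chosen with earlier results of these data known. Boundaries in bases were fitted with limma 3.58.1 in R 4.3.3 over every transcript with a boundary in all 18 libraries of 5 and 15 min, and separately in all 9 libraries of 30 min, with genotype and time as groups and Benjamini-Hochberg adjustment over all transcripts at 0.05. Library shares and medians were compared by exact two-sided permutation tests, adjusted within families. Python 3.11.15 with numpy 2.4.6, pandas 2.3.3, scipy 1.17.1 and matplotlib 3.10.9 was used. The fits were tested on simulated data.

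Named genes are those with 1 protein-coding transcript each, not on chromosome 18: the first 3 genes by alphabet in each list with every boundary of 5 and 15 min above 2.5 kb (called readable), among readable genes the 5 largest falls and 5 largest rises at 15 min without overlap, the 3 largest and 3 smallest WT/WT advances and the transcripts next to the length limits, and, readable or not, up to 4 members a direction with the smallest limma p. Alternatives were the log2 scale, replicate number as a block, 1 transcript per gene, other rules for missing and 2.5 kb boundaries, means for medians, and each library left out in turn.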

Additional observations from a re-analysis of the deposited data

Results flagged for a closer look

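The difference in advance from 5 to 15 min between slow/slow and WT/WT cells passed a direct test before adjustment only. Over complete members it was 16.5 kb (exact permutation test over 400 arrangements, p = 0.0350, adjusted p = 0.105 over 3 comparisons), or 5.65 kb as a mean over members (exact permutation p = 0.0300), and limma called 106 members. Among members above 2.5 kb in all 18 libraries the difference was -1.23 kb, while with only the 2.5 kb boundaries left out it was 8.30 kb (exact permutation p = 0.0450). The part of the 2.5 kb boundaries in these results was not tested.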

How the results depend on the processing

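Of 611 comparisons of a result with its value under an alternative, 511 kept their direction and their side of the threshold (unadjusted p of 0.05 for exact tests, a factor of 1.5 for counts). This total is no measure of stability, since exact tests of 3 against 3 libraries cannot go below 0.1, advances without 1 library have no p and the 30 min medians with all boundaries kept are all 2.5 kb. The causes of the other changes were not tested. The number of libraries, 3 per group, and the unknown depth limit the precision.

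The replicate numbers were tested as a pairing. Same-numbered libraries had correlated deviations over 0.1 in 23 of 45 pairs (from -0.00392 to 0.355), short of the rule of every pair set for a paired design, so the libraries were not treated as paired. All 18 libraries correlated best with their own number, a hint from the data and not from the design. With the replicate block, limma called 3 members at 5 min and 28 at 30 min (slow/slow against WT/WT), and the difference in advance, 16.5 kb, had an exact permutation p of 0.250, the lowest that 3 blocks allow, so exact tests with the block cannot show whether a call holds. Of the named genes' calls, that of Capzb was lost (limma adjusted p = 0.0565). No other limma count moved by over 1.5 times with the block.

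With 1 transcript per gene, calls numbered 133 for slow/slow against WT/WT at 15 min (113 higher, 20 lower), 10 at 30 min, 52 for WT/slow against WT/WT, 49 for slow/slow against WT/slow, 104, 141 and 128 for 15 against 5 min (WT/WT, then WT/slow, then slow/slow), and 46 for the difference in advance, with fewer transcripts tested. The share at 2.5 kb against 100 to 200 kb at 15 min then differed by 0.0706 points.

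With only boundaries above 2.5 kb, the calls were 35 at 15 min (9 higher, 26 lower), 0 at 5 min and 6 at 30 min for slow/slow against WT/WT, 20 for WT/slow against WT/WT, 4 for slow/slow against WT/slow, 208, 235 and 187 for the advance (same order), and 4 for the difference in advance. At 5 min, limma called 7 members with all boundaries kept. An unadjusted p under 0.05 was found for 197 of 4328 members, a share under the 0.05 passed on average with no change. The median boundary at 15 min then differed by -5.07 kb (slow/slow against WT/WT), -1.23 kb (WT/slow against WT/WT) and -3.83 kb (slow/slow against WT/slow). The WT/WT advance was 19.5 kb, and differences in advance were -1.23 kb (slow/slow against WT/WT) and -1.60 kb (slow/slow against WT/slow).

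With 2.5 kb boundaries left out, the WT/WT advance was 8.80 kb, the difference in advance (slow/slow against WT/WT) kept its direction at 8.30 kb (exact permutation p = 0.0450), and the median boundary differed from 100 to 200 kb by -0.0944 kb at 15 min and 0.311 kb at 5 min, and from 30 to 60 kb by 1.59 kb at 30 min. In limma, chosen after seeing the data with at least 2 of 3 boundaries a group, calls were 160 at 15 min (52 higher) and 2 at 5 min for slow/slow against WT/WT, 30 for slow/slow against WT/slow, 556 and 566 for the advance in WT/WT and slow/slow, and 22 for the difference in advance.

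The mean over members gave a WT/WT advance of 4.95 kb. On the log2 scale limma called 15 members at 5 min and 40 lower at 15 min. With at least 2 of 3 boundaries a group, on the original scale, it called 17 at 5 min. Among transcripts of at least 60 kb it called 1 at 5 min, 194 for the slow/slow advance and 68 for the difference in advance. In members with all 27 boundaries the 30 min share differed by -0.660 points (slow/slow against WT/WT).

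Leaving out 1 library at a time, limma counts for slow/slow against WT/WT ran from 208 to 448 at 15 min (154 to 317 higher, 36 to 131 lower), 3 to 18 at 5 min and 43 to 113 at 30 min. They ran from 116 to 245 for WT/slow against WT/WT, 274 to 608 and 144 to 514 for the advance in WT/slow and slow/slow, and 73 to 185 for the difference in advance. The WT/WT advance ran from -4.60 to 1.00 kb. Medians at 5 min ran from -4.20 to 0.250 kb (slow/slow against WT/WT), -3.33 to 1.12 kb (WT/slow against WT/WT) and -2.00 to 0.800 kb (slow/slow against WT/slow). Shares ran from -0.742 to 1.70 points at 5 min and -2.78 to 2.90 at 30 min (slow/slow against WT/WT), and -9.96 to 1.22 at 15 min (WT/slow against WT/WT). Without 1 replicate number, shares against 30 to 60 kb ran from -0.285 to 0.635 points at 5 min and -2.81 to -0.734 at 30 min, shares against 100 to 200 kb from -2.75 to -1.14 at 5 min and -0.684 to 0.169 at 15 min, and medians against 100 to 200 kb from 0.300 to 1.00 kb at 5 min and -0.342 to 0.975 kb at 15 min.

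Without both WT/WT replicate 2 libraries, chosen after seeing the data, the WT/WT advance was 3.75 kb, and limma called 154 members higher at 15 min, 15 at 5 min, 520 for the slow/slow advance and 58 for the difference in advance.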
